A study of Homo sapiens with 14 samples.

Results

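Kasumi-1 cells that had been nucleofected with a control siRNA against firefly luciferase were set against untransfected Kasumi-1 cells, 96 h after the treatment. The members are arrays, taken by their titles: 2 luciferase siRNA nucleofection arrays and 2 untransfected arrays of the 14 in the series, read over all 22283 probe sets. Kasumi-1 is an established line grown from a human acute myeloid leukaemia. It expresses AML1-ETO, the product of a RUNX1-RUNX1T1 gene fusion, and all groups share this fusion and the same RPMI medium with serum.

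The nucleofected cells received siRNA at 1.5 µM by Amaxa nucleofection, an electrical transfection in buffer V with program P-19 (replicates 1 and 2). One array from nucleofection without siRNA was read beside them as a check. Luciferase siRNA by siLentFect lipid at 240 nM was on 3 arrays, AML1-ETO siRNA by nucleofection and by lipid was on 3 each, and the untransfected arrays were replicates 1 and 3. Replicate 3 of luciferase nucleofection and replicate 2 of untransfected cells were not used here. siRNA, buffer, electrical pulse and dose cannot be told apart in the comparison with untransfected cells, and dose and method cannot be told apart in the comparison with lipid. The labels do not say whether replicates were separate cultures, so the p-values measure the spread between arrays, which may be technical.

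Human cells have no luciferase gene, and this siRNA serves as a control for the delivery of a double-stranded RNA. Electroporation opens pores in the plasma membrane, and cells repair them with calcium-dependent machinery. Kasumi-1 cells resemble early granulocytic cells, which make the serine proteases and other proteins of the azurophil (primary) granule. These proteins are made during the promyelocyte stage, and a small set of myeloid transcription factors (RUNX, PU.1 and C/EBP) is known to act on their genes.

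The strands of the luciferase siRNA are shown because they are the agent that the nucleofected arrays carried and the array without siRNA did not. They are given 5′ to 3′ from the labels without their deoxythymidine ends, and the capital marks the only base pair that does not match between them as labelled.
Sense: cguacgcGgaauacuucga
Antisense: ucgaaguauucGgcguacg
Counted from 1 at its 5′ end, the antisense strand differs from the exact complement of the sense strand by C12G. Whether this is how the duplex was made was not tested.

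The arrays measured relative transcript abundance as MAS5 signal, a linear intensity that the authors scaled to the same mean on every array. Correlations across all probe sets on the log2 scale were 0.9689 between the luciferase nucleofection arrays, 0.9816 between the untransfected arrays, and between 0.9567 and 0.9612 across these groups. The line's genes were present: KIT, a stem cell factor receptor, had signals of 1901 and 2153 after nucleofection and 2297 and 2051 in untransfected cells. The brightest RUNX1T1 probe set, on the fusion partner, had 644.5 and 762.7 after nucleofection and 618.6 and 514.1 in untransfected cells. It had 581.6 on the array without siRNA. The difference was 0.31 (limma adjusted p = 0.344), and the 3 other RUNX1T1 probe sets differed by -0.01, -0.51 and -0.06. CD34 was dim, with 42.5 and 55.6 after nucleofection and 74.5 and 73.7 in untransfected cells, and ANPEP was below a signal of 20 on all 4 arrays. CD33 was not analysed here.

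Several measures of array and RNA quality, but not all, moved with the groups. The control probe set for the 3′ end of 18S ribosomal RNA had signals of 1409 and 243.6 on the luciferase nucleofection arrays and 1965 on the array without siRNA, against 46.3 and 67.9 on the untransfected arrays. The 3 AML1-ETO nucleofection arrays lay between 165 and 525, and the 3 luciferase lipid arrays between 15.2 and 58.0. All 6 nucleofection arrays therefore lay above all lipid and untransfected arrays. The log2 ratio of 3′ to 5′ GAPDH signal, a gauge of RNA integrity, was 0.25 and 0.03 after luciferase nucleofection and -0.04 without siRNA, against -0.19 and -0.21 in untransfected cells. It overlapped between AML1-ETO nucleofection (-0.18, -0.13 and -0.11) and AML1-ETO lipid (-0.17, -0.26 and -0.38). The same ratio for ACTB was 0.84 and 0.38 after luciferase nucleofection and 0.36 without siRNA. Untransfected cells had ACTB ratios of 0.66 and 0.50, so these groups overlapped. The MAS5 scale factors were 1.17 and 1.53 after luciferase nucleofection and 1.12 without siRNA, against 0.571 and 1 in untransfected cells. The part of these measures in the results below was not tested beyond covariate fits. Those fits added the 18S rRNA signal, the GAPDH ratio or the scale factor.

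**Figure D1:**
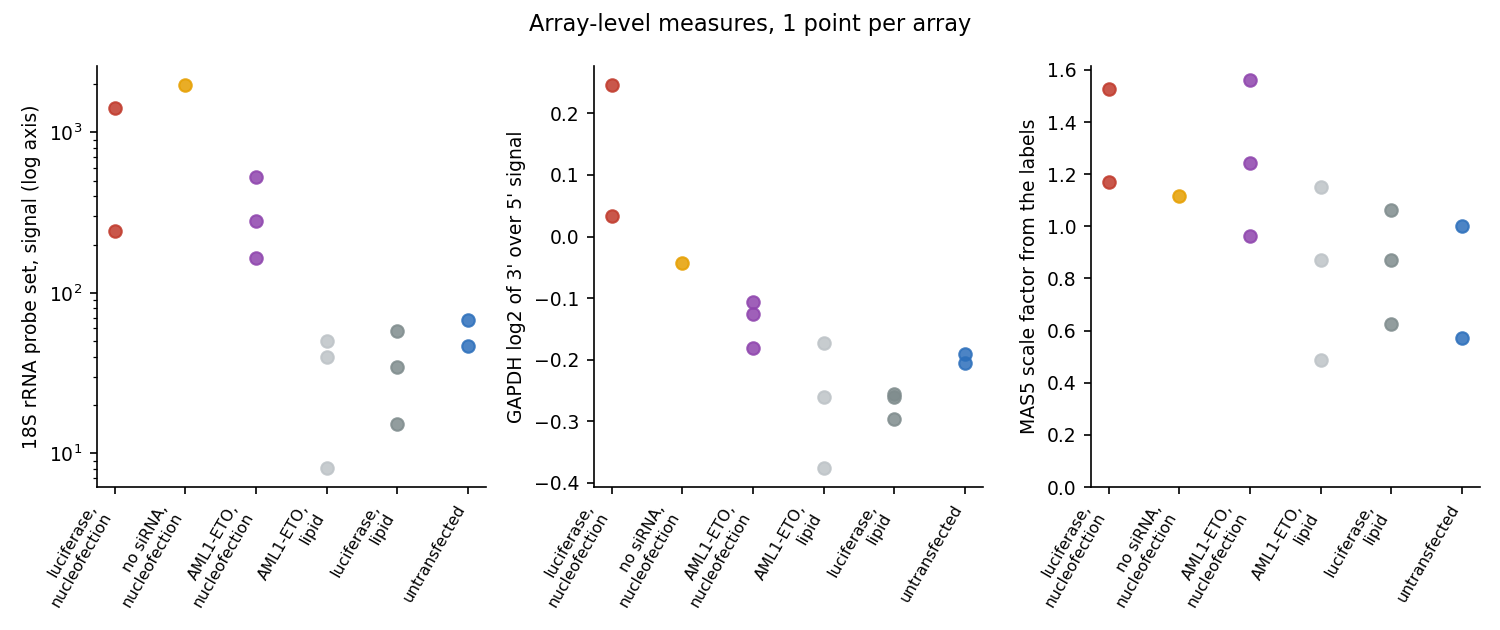
The 18S rRNA probe set signal (log axis), the GAPDH log2 ratio of 3′ to 5′ signal and the MAS5 scale factor are plotted for each of the 14 arrays by group, 1 point per array. The 18S rRNA signal of every nucleofection array (165 or more) lies above that of every lipid and untransfected array (67.9 or less).

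Falls outnumbered rises 96 h after nucleofection. Of 7178 genes tested, 369 (5.14%) were called at a limma Benjamini-Hochberg adjusted p below 0.05, 280 lower (3.9%) and 89 higher (1.24%). Among them 130 fell by at least 1 on the log2 scale and 51 rose by at least 1. The largest falls included the granule gene AZU1, the fibrillin gene FBN2 and the surface glycoprotein gene CD24, while the rises were mostly of dim genes. The arrays of the 2 groups did not overlap for any of the 369, whereas over all genes tested 32.3% had both nucleofection arrays below and 22.0% had both above. The smallest p that an exact permutation of 2 against 2 arrays allows is 0.333, so all calls rest on the spread that limma pools over the 6 groups. When only these 4 arrays were fitted, limma called 0 genes, with 1521 at an unadjusted p below 0.05 (1665 in the pooled fit).

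The split between lower and higher depended on the scaling. Of the genes called, 24.12% were higher as deposited, 34.57% (112 of 324) after quantile normalization and 42.97% (162 of 377) with arrays centred on their medians. The median difference over all genes was -0.06 as deposited, 0.01 after quantile normalization and 0.05 after centring. The median difference also followed signal: over 4 equal bins of genes sorted by mean signal, dimmest first, it was 0.17, -0.02, -0.12 and -0.19 as deposited, and 0.05, 0, 0 and 0.01 after quantile normalization. All 4 signals were below 100 for 63 of the 89 higher genes (70.79%) and 64 of the 280 lower genes (22.86%), against 49.6% of all genes tested.

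Single arrays and array measures moved the count of calls. It was 156 without luciferase nucleofection replicate 1, 126 without luciferase nucleofection replicate 2, 56 without untransfected replicate 1 and 155 without untransfected replicate 3. With the GAPDH ratio as a covariate 10 genes were called, and with the log 18S rRNA signal 10. Both covariates differ between the nucleofection and untransfected arrays, so covariate and treatment cannot be told apart in these fits. Of the 369 genes, those still called with the 18S rRNA signal were FBN2, LYST, AZU1, CFD, SLPI, SPINT2, TIMP2, MT1F, SERPINH1 and CTSG, all lower. With the GAPDH ratio they were AZU1, CFD, FBN2, LYST, SAT1, SPINT2 and TGM5, all lower, and DYRK3 and UGCG, both higher. LYST, SLPI, TIMP2, SAT1 and TGM5 are named here after their values were seen. LYST, which controls the size of lysosome-related granules, had a mean signal of 238 after nucleofection and 733.1 in untransfected cells (-1.64 on the log2 scale), and SLPI, a secreted inhibitor of neutrophil elastase, had 177 and 481.1 (-1.44).

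**Figure D2:**
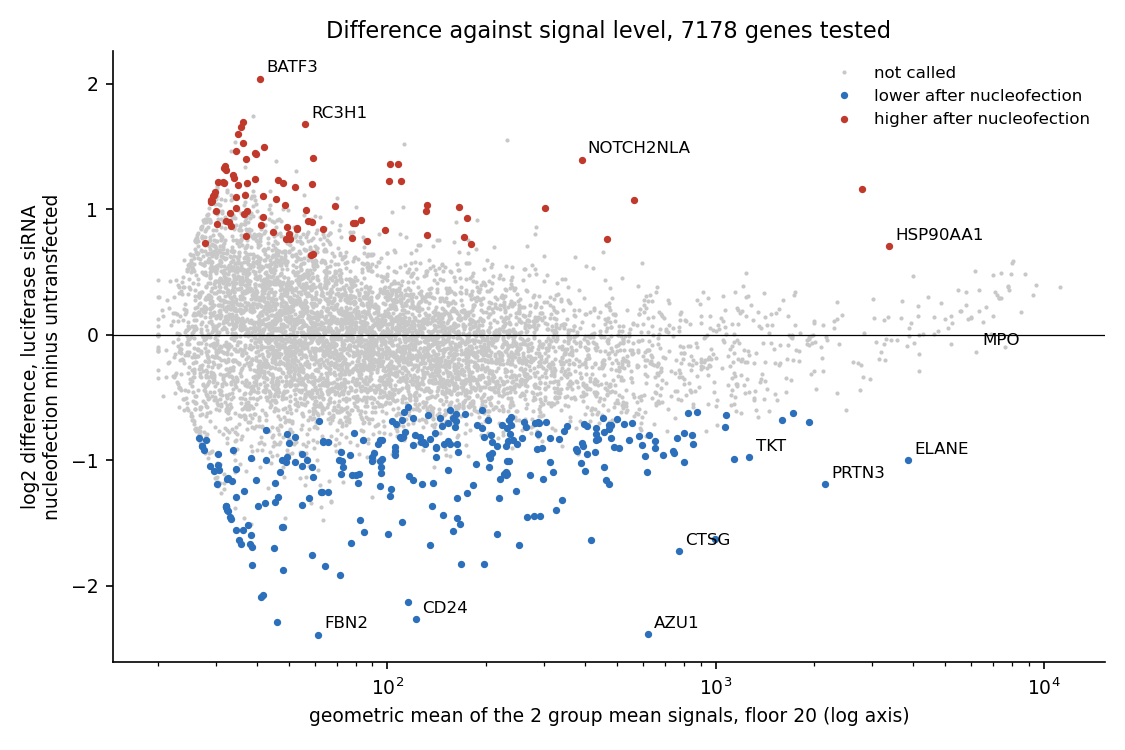
Each point is 1 of 7178 genes, with the geometric mean of the group mean signals on a log axis and the log2 difference, luciferase siRNA nucleofection minus untransfected, on the vertical axis. The 280 lower genes lie at all signal levels but more often at bright ones, with PRTN3 and ELANE among the brightest. Most of the 89 higher genes lie at the dim end. Over 4 equal bins of genes sorted by mean signal, dimmest first, the lower genes numbered 26, 53, 71 and 130. After quantile normalization they numbered 31, 62, 49 and 70.

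Of the granule protein genes tested, 9 fell, among them 5 that encode the serine protease family members AZU1, PRTN3, ELANE, CFD and CTSG. Of 25 listed genes, 22 were on the array and 14 passed the filter, of which 9 were lower and 0 higher, with a median log2 difference of -0.85 (-0.55 after quantile normalization with 7 lower, -0.63 after centring with 9 lower). That is 64.29% of those tested, beside 3.9% of all genes. Their summed signal was 12720 and 13750 after luciferase nucleofection and 14790 without siRNA, against 22620 and 22170 in untransfected cells. The list was chosen with earlier results of these data known, so its direction is not independent evidence. In a bulk sample, fewer cells of a type and less RNA per cell cannot be told apart. Fitted in turn without each of the 4 arrays, the count of lower genes was between 4 and 6. It was 2 with the GAPDH ratio as a covariate, where the list median was -0.80, and 3 with the 18S rRNA signal, where it was -0.67.

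**Figure D3:**
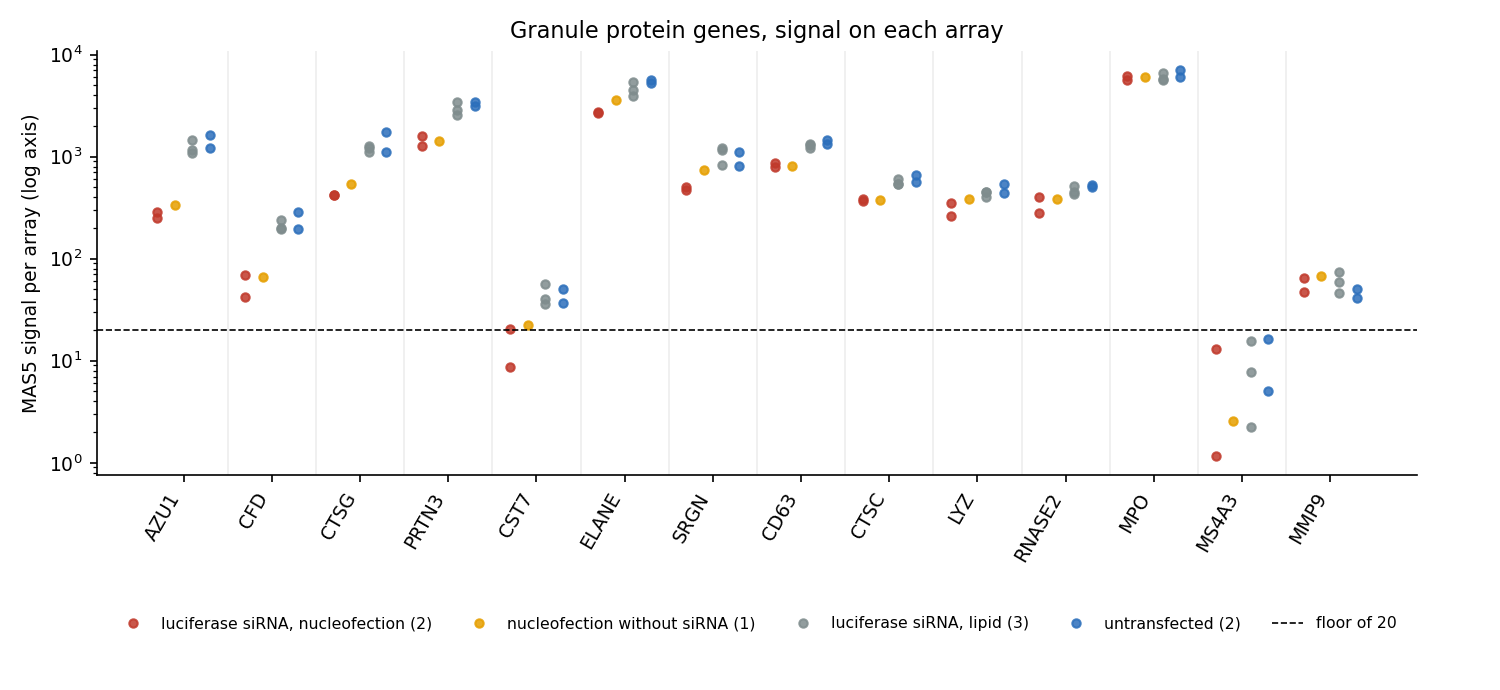
MAS5 signal on each array (log axis) for the 14 granule protein genes tested, with luciferase nucleofection leftmost, then nucleofection without siRNA, luciferase lipid and untransfected cells. AZU1 (289.5 and 251.8 after nucleofection, 1629 and 1224 in untransfected cells) shows the widest gap, while MPO overlaps between the groups.

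AZU1 encodes azurocidin, an antimicrobial protease homologue without protease activity. Its signals were 289.5 and 251.8 after luciferase nucleofection and 332.6 without siRNA, against 1629 and 1224 in untransfected cells. The nucleofection arrays did not overlap the untransfected ones, and the log2 difference was -2.39 ± 0.22 (SE, limma adjusted p = 0.000358), a 5.23-fold fall. It kept its call in 20 of 21 alternatives, including both array covariates.

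PRTN3, ELANE and CFD lie on chromosome 19 beside AZU1, in the order AZU1, PRTN3, ELANE and CFD with no other protein-coding gene between them, and all fell. PRTN3, proteinase 3, had 1283 and 1577 after nucleofection and 1438 without siRNA, against 3115 and 3400 in untransfected cells, a difference of -1.19 ± 0.19 (SE, limma adjusted p = 0.00646). ELANE, neutrophil elastase, had 2695 and 2744 after nucleofection and 3605 without siRNA, against 5592 and 5310 in untransfected cells, a difference of -1.0 ± 0.19 (SE, limma adjusted p = 0.0138). CFD encodes complement factor D, the serine protease that starts the alternative complement pathway. Its signals were 68.6 and 42.2 after nucleofection and 66.1 without siRNA, against 286.5 and 194.1 in untransfected cells, a difference of -2.13 ± 0.24 (SE, limma adjusted p = 0.000842). The groups did not overlap for any of these, and the falls of AZU1 and CFD were larger than those of PRTN3 and ELANE, an order whose difference was not tested. ELANE lost its call whichever of the 4 arrays was left out, with adjusted p between 0.0552 and 0.107, and PRTN3 kept it with adjusted p between 0.0228 and 0.0447. With the 18S rRNA signal as a covariate the differences were -1.28 for PRTN3 (limma adjusted p = 0.0837) and -1.37 for ELANE (limma adjusted p = 0.0646). With the GAPDH ratio they were -1.20 (limma adjusted p = 0.254) and -1.30 (limma adjusted p = 0.229), so the calls were lost while the differences were no smaller.

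CTSG, cathepsin G, is the granule protease gene of chromosome 14, between CMA1 and GZMH among protein-coding genes. Its signals were 419.2 and 422.7 after luciferase nucleofection and 536.6 without siRNA, against 1731 and 1121 in untransfected cells. The difference was -1.73 ± 0.19 (SE, limma adjusted p = 0.000842), and the untransfected arrays differed more from each other than the nucleofection arrays did. With the GAPDH ratio as a covariate the difference was -1.76 and the limma adjusted p 0.129. Where AML1-ETO siRNA was nucleofected, CTSG stood at 5903, 5550 and 5705 and AZU1 at 970.9, 1269 and 906.6.

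Genes whose products activate, inhibit or store these proteases also fell. CTSC, cathepsin C, removes the activating dipeptide from granule proteases, and it differed by -0.72 ± 0.16 (SE, limma adjusted p = 0.0207). CST7, cystatin F, which inhibits cathepsin C, differed by -1.09 ± 0.24 (SE, limma adjusted p = 0.0221) from a dim level of 50.9 and 36.5 in untransfected cells. SRGN, the serglycin core protein that holds proteases in the granule, had 474.4 and 509 after nucleofection and 745.6 without siRNA, against 1123 and 809.7 in untransfected cells (-0.96 ± 0.21 SE, limma adjusted p = 0.0253). Its other probe set differed by -1.22. CD63, a tetraspanin of the granule membrane, had 794.1 and 863.9 after nucleofection and 808.8 without siRNA, against 1440 and 1326 in untransfected cells (-0.74 ± 0.16 SE, limma adjusted p = 0.0211).

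Not all granule genes passed the test. MPO, the myeloperoxidase of the same granule, had 5700 and 6143 after nucleofection and 6017 without siRNA, against 5983 and 7062 in untransfected cells. Its arrays overlapped, and the difference was -0.14 ± 0.21 (SE, limma adjusted p = 0.742). LYZ, lysozyme, differed by -0.69 ± 0.25 (SE, limma adjusted p = 0.124) and RNASE2, an eosinophil-derived ribonuclease, by -0.63 ± 0.20 (SE, limma adjusted p = 0.0879), both with nucleofection arrays below the untransfected ones. MMP9, a gelatinase of later granules, differed by 0.29 ± 0.26 (SE, limma adjusted p = 0.54), and MS4A3 lay below the floor of 20 on all 4 arrays. MS4A3 could therefore not be called. It passed the filter on signal in other groups, such as 58.6, 71.5 and 42.0 after AML1-ETO siRNA nucleofection. Of the remaining listed genes, DEFA4, LTF, LCN2, CAMP, MMP8, EPX, PRG2 and CLC were under the filter, with highest signals between 6.26 and 51.8 on these arrays. RNASE3, BPI and PRSS57 were not analysed here.

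Promoters are shown only for called granule genes whose 250 bases before the start hold the letters of a myeloid factor's motif. Shared control of these genes was not tested. The matches are not confined to the called genes: RNASE2, tested and not called (-0.63, limma adjusted p = 0.0879), holds 1 C/EBP match. MS4A3 holds 2, but it was below the floor on all 4 arrays and could not be called. RefSeq sequence (GRCh38.p14) was at hand for 6 of the 9 called genes. The motif letters searched on both strands were TGTGGT for RUNX, GAGGAA for PU.1 and TTGCNNAA for C/EBP, with no overlap among the matches printed. Capitals mark a match, and each sequence runs 5′ to 3′ towards the gene's start. The RUNX letters were in 0 of the 6, and CFD, CD63 and CTSC held none of the 3 motifs. AZU1 (chr19:827587-827836, plus strand) held 1 C/EBP match, PRTN3 (chr19:840749-840998, plus strand) 1 PU.1 and 1 C/EBP match, and CTSG (chr14:24576251-24576500, minus strand) 2 PU.1 matches.
AZU1: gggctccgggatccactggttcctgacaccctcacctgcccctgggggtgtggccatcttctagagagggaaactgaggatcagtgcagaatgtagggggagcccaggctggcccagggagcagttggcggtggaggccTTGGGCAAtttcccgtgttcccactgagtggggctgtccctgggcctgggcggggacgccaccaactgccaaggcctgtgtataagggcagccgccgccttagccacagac
PRTN3: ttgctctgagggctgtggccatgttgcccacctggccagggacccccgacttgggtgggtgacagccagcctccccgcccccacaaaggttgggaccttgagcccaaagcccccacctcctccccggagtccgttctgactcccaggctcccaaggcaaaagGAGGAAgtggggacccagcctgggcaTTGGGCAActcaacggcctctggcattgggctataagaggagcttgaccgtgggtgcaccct
CTSG: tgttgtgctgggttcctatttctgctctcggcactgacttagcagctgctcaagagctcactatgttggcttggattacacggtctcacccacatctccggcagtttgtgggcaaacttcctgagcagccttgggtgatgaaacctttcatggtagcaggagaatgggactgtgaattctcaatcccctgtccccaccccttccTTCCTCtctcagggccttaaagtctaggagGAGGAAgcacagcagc
Of 35116 promoters of the same length, 11% held the RUNX letters, 23.6% the PU.1 letters and 9.05% the C/EBP letters. These are letter matches in a fixed window and describe no binding.

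Outside the granule list, the largest fall was in FBN2, which encodes fibrillin-2, an extracellular matrix protein. Its signals were 26.6 and 26.9 after luciferase nucleofection and 41.4 without siRNA, against 157.6 and 124.8 in untransfected cells. The difference was -2.39 ± 0.19 (SE, limma adjusted p = 0.000141), the smallest adjusted p among the largest falls. Its other probe set differed by 0. CD24, a mucin-like surface glycoprotein, had 53.6 and 55.9 after nucleofection and 90.6 without siRNA, against 339.7 and 204.1 in untransfected cells (-2.27 ± 0.24 SE, limma adjusted p = 0.000818). All 5 other CD24 probe sets were lower too, by -0.44 to -2.10. CSF3R, the receptor of granulocyte colony-stimulating factor, had 48.4 and 16.3 after nucleofection and 36.4 without siRNA, against 125.5 and 88.0 in untransfected cells (-1.76 ± 0.33 SE, limma adjusted p = 0.0126).

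The other large falls were in genes of varied function. SPINT2, a Kunitz-type inhibitor of serine proteases, had 106.9 and 71.9 after nucleofection and 105.7 without siRNA, against 352.6 and 276.0 in untransfected cells (-1.83 ± 0.22 SE). PDLIM1, a PDZ and LIM protein of the actin cytoskeleton, had 106.3 and 99.6 after nucleofection and 109.1 without siRNA, against 471.1 and 282.3 in untransfected cells (-1.83 ± 0.22 SE). MRPL35, a mitochondrial ribosomal protein, differed by -2.29 ± 0.39 (SE) with nucleofection signals of 8.31 and 23.7, of which the first lay below the floor. PIK3CG, the gamma catalytic subunit of phosphoinositide 3-kinase, and MSRB1, a methionine sulfoxide reductase, were below the floor on both nucleofection arrays, so their signals were at least 4.27-fold and 4.22-fold lower than in untransfected cells. ZNF580, SERPINH1 (a collagen chaperone), IFT122 (an intraflagellar transport protein) and TMEM135 differed by -1.91, -1.87, -1.84 and -1.84. The 15 largest falls had limma adjusted p-values between 0.000141 and 0.0166 and were called in 12 to 20 of up to 21 alternatives, and 12 of them were read by probe sets of the _s_at or _x_at type, which can take signal from related transcripts. IFT122 had another probe set at 0.08.

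The 15 largest rises were mostly in dim genes and held in fewer alternatives than the falls. Their limma adjusted p-values lay between 0.00793 and 0.0421, and they were called in 5 to 16 of up to 21 alternatives. BATF3, a basic leucine zipper transcription factor, had 70.6 and 95.9 after luciferase nucleofection and 37.9 without siRNA, against 7.53 and 10.1 in untransfected cells. Both untransfected arrays lay below the floor, so the rise was at least 4.12-fold (limma adjusted p = 0.0313). RC3H1, the RNA-binding ubiquitin ligase roquin, had 100.6 and 99.0 after nucleofection and 75.1 without siRNA, against 26.4 and 36.8 in untransfected cells (1.68 ± 0.29 SE, limma adjusted p = 0.00793). TNFRSF10B, a death receptor for TRAIL and a p53 target, had 111.4 and 81.7 after nucleofection and 90.7 without siRNA, against 31.3 and 41.4 in untransfected cells (1.41 ± 0.28 SE, limma adjusted p = 0.0138). Its other probe sets differed by 0.29 and -0.64, so the probe sets of this gene disagree.

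Brighter rises were few. NOTCH2NLA, which shares sequence with NOTCH2 and its other copies and is therefore uncertain, had 596.1 and 666.2 after nucleofection and 415.2 without siRNA, against 267.9 and 214.5 in untransfected cells (1.39 ± 0.26 SE). UGCG, the enzyme that makes glucosylceramide, had 114.3 and 221.3 after nucleofection and 123.0 without siRNA, against 64.9 and 59.5 in untransfected cells (1.36 ± 0.24 SE). The other UGCG probe set differed by 0. RCC1, the nucleotide exchange factor of the Ran GTPase, had 186.7 and 155.3 after nucleofection and 207.4 without siRNA, against 52.6 and 83.4 in untransfected cells (1.36 ± 0.28 SE). The arrays of these groups did not overlap. DYRK3 (a protein kinase), VWA5A, TGFB3 (a transforming growth factor), GDPD3, SLCO2A1 (a prostaglandin transporter), and CYP2D6 (a drug-metabolising enzyme) were dim in untransfected cells and rose by 1.40 to 1.53. The other probe sets of VWA5A and CYP2D6 differed by 0.07 and 0. For DYRK3 and VWA5A the lipid arrays also stood above the untransfected ones, by means of 1.11 and 0.86 on the log2 scale, and nucleofection minus lipid was 0.39 for DYRK3 (limma adjusted p = 0.378) and 0.60 for VWA5A (limma adjusted p = 0.198). THRB, a thyroid hormone receptor, was below the floor on both untransfected arrays and rose at least 3.03-fold. FGR, a Src-family kinase, and SLC28A1, a nucleoside transporter, rose on the luciferase arrays by 1.66 on the log2 scale and at least 3.24-fold, while the array without siRNA stood at 6.93 for FGR and 7.15 for SLC28A1, below the floor.

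**Figure D4:**
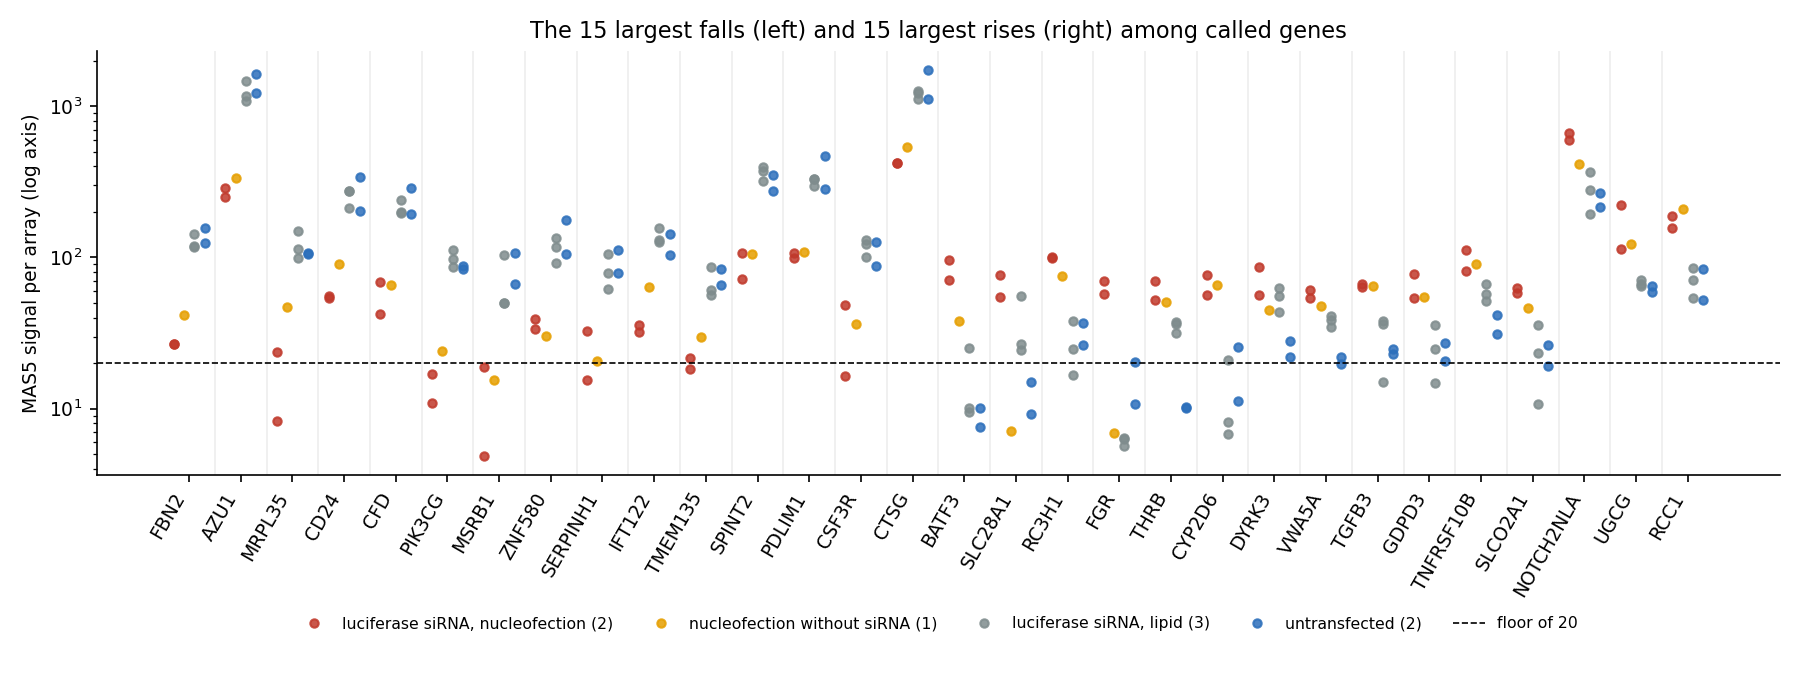
MAS5 signal on each array (log axis) for the 15 largest falls on the left and the 15 largest rises on the right, with luciferase nucleofection leftmost within each gene, then nucleofection without siRNA, luciferase lipid and untransfected cells. The array without siRNA stands with the luciferase nucleofection arrays for most genes but lies below the floor of 20 for FGR (6.93) and SLC28A1 (7.15).

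Lysosomal genes that passed the test all fell. Of 35 tested, 8 were lower and 0 higher (22.86%, beside 3.9% of all genes), with a median difference of -0.43 (-0.21 after quantile normalization, with 6 lower). Leaving out 1 of the 4 arrays left 3 or 4 lower, and either the GAPDH or the 18S rRNA covariate left 0. TCIRG1, a subunit of the proton pump, had 19.3 and 23.2 after nucleofection and 21.8 without siRNA, against 61.0 and 76.5 in untransfected cells (-1.66 ± 0.19 SE, limma adjusted p = 0.000842). NPC2, which binds cholesterol in the lysosome, had 293.7 and 254.1 after nucleofection and 271.4 without siRNA, against 597.6 and 564.4 in untransfected cells (-1.09 ± 0.16 SE, limma adjusted p = 0.00378). LAMP2, a lysosomal membrane protein, differed by -0.90, the sialidase NEU1 by -1.66 and the mannosidase MANBA by -0.80. The other 3 lower genes differed by -0.79 to -1.0.

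On the list of cholesterol and fatty acid genes, 7 of 26 tested were lower (26.92%, beside 3.9% of all genes) and 0 higher, with a median of -0.39 (-0.22 after quantile normalization, with 5 lower). SCD, a fatty acid desaturase, had 300.7 and 315.4 after nucleofection and 244.9 without siRNA, against 608.9 and 777.3 in untransfected cells (-1.16 ± 0.19 SE, limma adjusted p = 0.00646). Its 3 other probe sets differed by -0.85 to -1.18. FASN, fatty acid synthase, had 551.6 and 520.2 after nucleofection and 363.6 without siRNA, against 939.4 and 1132 in untransfected cells (-0.94 ± 0.17 SE, limma adjusted p = 0.00993). The other FASN probe set differed by 0. TM7SF2, a sterol reductase, differed by -1.09. ABCG1 and MYLIP differed by -1.35 and -1.08, and these export cholesterol and lower the LDL receptor, so 5 of the 7 are genes of synthesis or its control. The remaining 2 differed by -0.80 and -1.10. Leaving out 1 of the 4 arrays left 2 or 3 lower, and either array covariate left 0.

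Surface receptors gave 6 lower and 1 higher of 26 tested (23.08% lower, beside 3.9% lower and 1.24% higher of all genes), with a median of -0.11 that was 0.00 after centring, when 3 were lower. Besides CD24 and CSF3R these were CD37, a tetraspanin (-0.93), TFRC, the transferrin receptor (-0.62), and another pair between -0.62 and -0.85. PTPRC, the CD45 phosphatase, was higher by 1.03 ± 0.26 (SE, limma adjusted p = 0.0371), but its other probe sets differed by -0.55 and -0.05. Without 1 of the 4 arrays 1 to 3 were lower, and with the scale factor as a covariate 1 was. With the GAPDH ratio or the 18S rRNA signal it was 0. Among 17 genes of neutrophil maturation, 3 were lower and 0 higher: CSF3R, the fucosyltransferase FUT4 (-1.01) and the transcription factor CEBPD (-0.91, with another probe set at 0.22). Their list median was -0.02.

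Genes of oxidative stress and metal response that passed the test were lower, 6 of 29 (20.69%, beside 3.9% of all genes) with 0 higher and a median of -0.36 (-0.13 after quantile normalization, with 4 lower). SLC39A4, a zinc importer, had 105.7 and 90.6 after nucleofection and 104.6 without siRNA, against 290.9 and 248.4 in untransfected cells (-1.46 ± 0.19 SE, limma adjusted p = 0.00262). MT1F, a metallothionein, had 199.3 and 203.1 after nucleofection and 201.2 without siRNA, against 548.1 and 511.1 in untransfected cells (-1.40 ± 0.19 SE, limma adjusted p = 0.00307). MT1H and MT1E fell by 0.93 and 0.90, and metallothionein copies are near identical, so signal can be shared among them. TKT and PGD, enzymes of the pentose phosphate pathway, differed by -0.98 and -0.80. With the 18S rRNA signal as a covariate 1 of the 29 was lower, and with the GAPDH ratio 0.

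Few genes of the classical stress programmes passed the test at 96 h. At an unadjusted p below 0.05 stood 4 of 17 heat shock genes, 10 of 30 on the list of unfolded protein stress, 5 of 18 immediate early genes and 8 of 17 p53 targets and cell cycle inhibitors, in either direction. Over all genes tested this was 1665 of 7178. Heat shock and chaperone genes gave 1 higher and 0 lower of 17, with a median of -0.02. HSP90AA1, the inducible cytosolic chaperone, had 4157 and 4462 after nucleofection and 3815 without siRNA, against 2819 and 2467 in untransfected cells (0.71 ± 0.16 SE, limma adjusted p = 0.0287), with its 3 other probe sets between -0.12 and 0.26. HSPB1 had 717.4 and 825.3 after nucleofection, against 988.8 and 1068 in untransfected cells (-0.42, limma adjusted p = 0.183). The 30 genes of unfolded protein and amino acid stress gave 1 higher, the amino acid transporter SLC7A5 (0.72), and 1 lower, the disulfide isomerase PDIA4 (-0.69), a count of 2 beside 5.14% of all genes.

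Limma called 0 of the 18 immediate early genes, with 5 at an unadjusted p below 0.05, beside 1665 of all 7178 genes. EGR1 had 48.1 and 46.1 after nucleofection and 27.3 without siRNA, against 12.6 and 30.9 in untransfected cells (0.92, limma adjusted p = 0.0976). Of 17 p53 targets and cell cycle inhibitors, TNFRSF10B was higher and CDKN2A, a cyclin-dependent kinase inhibitor, was lower (-1.11), with another CDKN2A probe set at 0.96. The p53 list had a median of -0.32 (-0.31 after quantile normalization), beside -0.06 over all genes. BTG1 (-0.76), CCNG2 (-0.73) and CCNG1 (-0.56) had the next smallest p in this list and were lower without a call. Of 25 apoptosis regulators, the initiator caspase CASP10 (at least 2.08-fold, both untransfected arrays being below the floor) and the survival gene BCL2 (0.89) were higher, and BIK, which promotes apoptosis, was at least 2.95-fold lower. BCL2's 3 other probe sets differed by -0.15 to 0.32, and BIK was called in 4 of 20 alternatives. Nucleofection minus lipid was 0.23 for CASP10 (limma adjusted p = 0.437), while BCL2 and BIK passed against lipid (limma adjusted p = 0.00968 and 0.0197). Of 15 interferon and nucleic acid sensing genes, BST2, or tetherin, was at least 2.74-fold lower and 0 were higher. BST2 was also lower with lipid than in untransfected cells (-0.85), and nucleofection minus lipid was -0.60 (limma adjusted p = 0.105). Of 15 inflammatory genes, the chemokine CCL5 was lower (-0.60). Lower genes made up 5.88% of the p53 list, 4.0% of the apoptosis list and 6.67% of the interferon and of the inflammatory list. Over all genes tested 3.9% were lower and 1.24% higher.

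Membrane repair and secretion showed a few falls. CAPNS1, the small subunit of calpain, had 296.7 and 288.3 after nucleofection and 392.4 without siRNA, against 556.3 and 575.9 in untransfected cells (-0.95 ± 0.18 SE, limma adjusted p = 0.0131). CHMP2A, an ESCRT subunit, differed by -0.84, and these were the 2 called of 23 (8.7%, beside 3.9% lower of all genes, with 0 higher and a median of -0.44). Of 39 genes of ER translocation and glycosylation, 4 were lower (10.26%, beside the same 3.9%): DDOST, of the oligosaccharyltransferase (-0.99), SRP9, of the signal recognition particle (-1.03), the COPII coat gene SEC24C (-0.72) and the retrieval receptor KDELR1 (-0.84). Their median of -0.34 was -0.15 after quantile normalization, with 2 lower.

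Genes of growth and housekeeping seldom passed the test, which 5.14% of all genes tested passed. Limma called 0 of 42 S phase genes, 0 of 37 mitosis genes, 0 of 27 ribosomal protein genes, 0 of 29 ribosome biogenesis genes, 0 of 31 proteasome genes and 0 of 10 genes of the siRNA machinery. At an unadjusted p below 0.05 these lists held 5, 3, 3, 2, 7 and 0 genes, beside 1665 of all 7178 genes. After quantile normalization 3 proteasome genes were higher. Ribosomal protein genes had a median of 0.14, which was 0.00 after quantile normalization. MKI67, a proliferation marker, had 179.2 and 174.4 after nucleofection and 155.0 without siRNA, against 105.1 and 136.4 in untransfected cells (0.56, limma adjusted p = 0.138). Lower genes were 1 of 38 of oxidative phosphorylation (NDUFA1, -1.10), 2 of 30 of glycolysis and hypoxia (NDRG1, -0.91, and VEGFA, -0.74) and 1 of 33 cytoskeletal genes (ARPC3, -0.72), with 0 higher in these lists. VEGFA's 3 other probe sets differed by -0.61 to 0.11. MHC genes gave HLA-DMB higher (0.99) and TAPBP lower (-0.87) of 16. The other TAPBP probe set differed by 0.

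Markers of other cells were mostly dim. Of 9 monocyte and macrophage genes tested and 1 of the mast cell, eosinophil and basophil list, limma called 0, with 2 and 0 at an unadjusted p below 0.05 (1665 of all 7178 genes). The monocyte gene LST1 was read by a probe set at -0.20, and its 5 other probe sets were lower by -0.74 to -1.90. Of 10 stem and progenitor genes 0 were called (2 unadjusted), and LMO2 had the smallest p (-0.69, limma adjusted p = 0.0516). The 7 lymphoid genes tested, of 22 on the array, had summed signals of 408.3 and 409.3 after nucleofection and 407.9 without siRNA, against 636.0 and 803.3 in untransfected cells. CD4, which myeloid cells also express, accounted for most of that gap, with 208.8 and 221.6 after nucleofection against 471.6 and 609.9 in untransfected cells (-1.32 ± 0.21 SE, limma adjusted p = 0.00509). The other CD4 probe set differed by 0. CD8A was at least 2.66-fold lower, with both nucleofection arrays below the floor. Of 8 erythroid and megakaryocytic genes TFRC was lower, and of 7 genes of cells outside the blood EPCAM was lower (-1.44) and ACTA2 higher (0.87). Lower genes made up 28.57% of the lymphoid, 12.5% of the erythroid and megakaryocytic and 14.29% of the non-blood genes tested. Over all genes tested 3.9% were lower and 1.24% higher. In lists this short, 1 call alone gives a share above that of all genes. Below the floor on all 5 arrays of nucleofected and untransfected cells were 7 of 22 lymphoid, 7 of 20 non-blood, 6 of 16 mast, eosinophil and basophil, 4 of 19 monocyte and 3 of 18 erythroid markers.

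**Figure D5:**
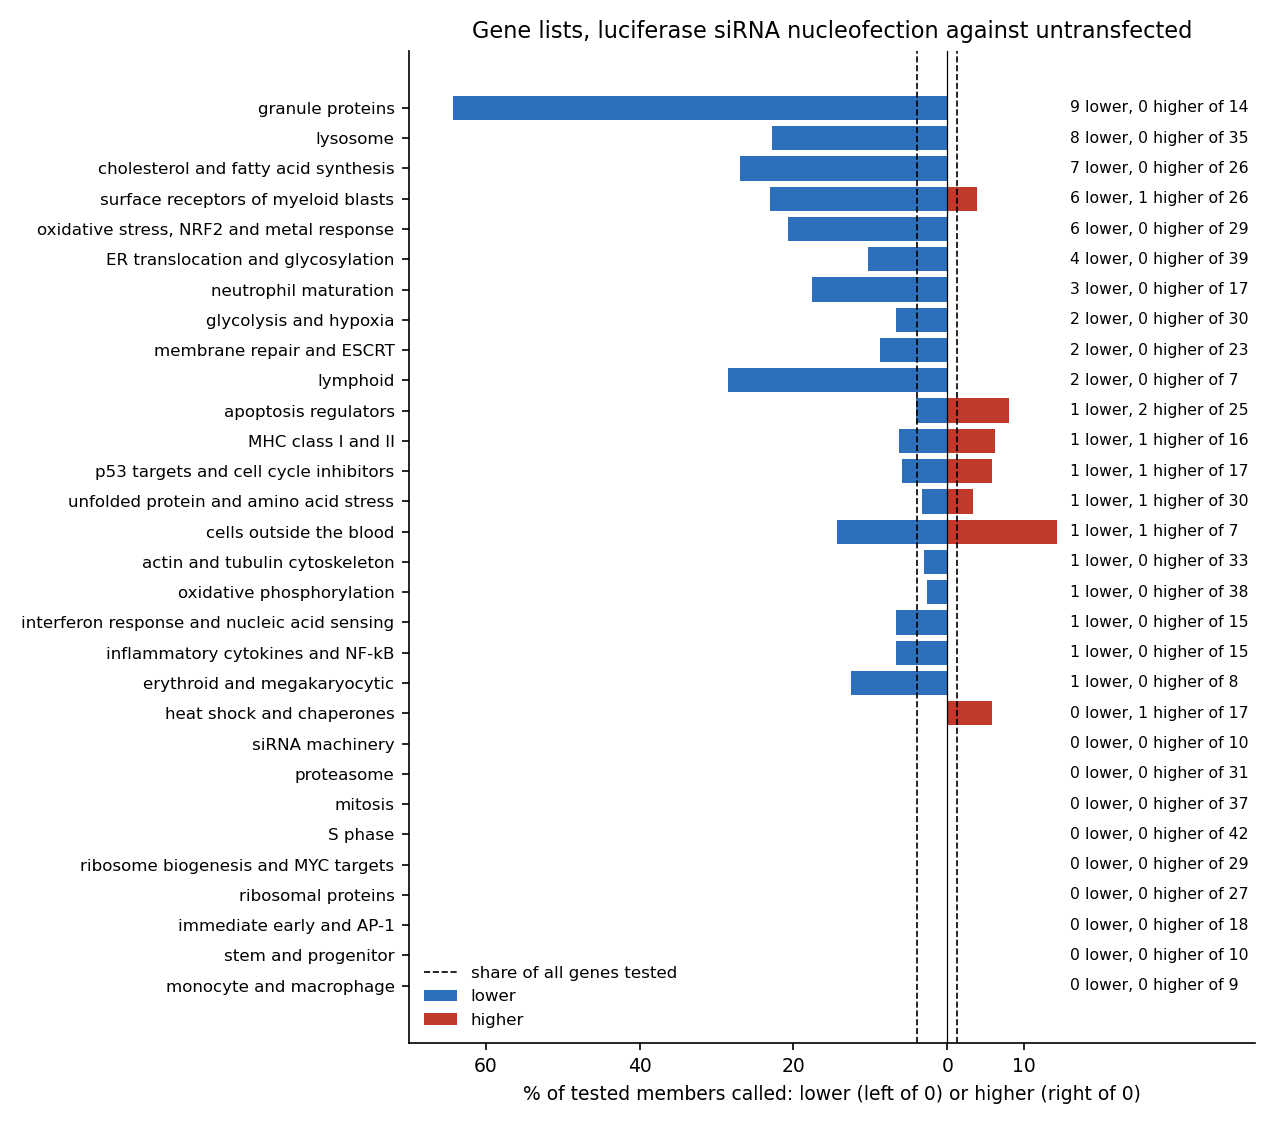
Share of the tested members of each list with at least 5 tested genes that were lower (left of 0) or higher (right of 0) after luciferase siRNA nucleofection, with counts at the right and dashed lines at the shares of all genes (3.9% lower and 1.24% higher). Granule protein genes, 9 lower of 14, stand farthest to the left, and lists of cell division and ribosomal proteins have no call.

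The same nucleofection arrays were then set against the 3 arrays of luciferase siRNA by lipid, which share no untransfected array with the first comparison but do share the nucleofection arrays. Limma called 586 genes (8.16%), 505 lower (7.04%) and 81 higher (1.13%). The higher share was 13.82% as deposited, 40.79% (195 of 478) after quantile normalization and 45.71% (192 of 420) after centring. All 15 largest falls and 10 of the 15 largest rises of the first comparison also passed this test, which the choice of these genes on the same nucleofection arrays favours. The 5 rises that did not pass it were DYRK3, VWA5A, TNFRSF10B, THRB and SLC28A1. AZU1 had 289.5 and 251.8 after nucleofection, against 1456, 1080 and 1166 after lipid (-2.18, limma adjusted p = 0.000355). CTSG had 419.2 and 422.7 after nucleofection, against 1225, 1265 and 1114 after lipid (-1.51, limma adjusted p = 0.000731). The granule list had a median of -0.69 in this comparison, beside -0.14 over all genes. With the GAPDH ratio as a covariate limma called 0 genes (641 at an unadjusted p below 0.05), and with the 18S rRNA signal it called 3.

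Arrays outside the groups of the first contrast were read for its called genes. The spread behind the calls was pooled over all groups, lipid and AML1-ETO arrays included. Called genes were thus chosen in part for close replicates on these arrays, which favours the separation counted here. The array of nucleofection without siRNA lay below all 3 luciferase lipid arrays for 268 of the 280 lower genes (95.71%), against 52.5% of all genes tested. It lay above them for 62 of the 89 higher genes (69.66%), against 16.7% of all. The AML1-ETO nucleofection arrays all lay below the AML1-ETO lipid arrays for 204 of the 280 lower genes (72.86%, against 28.1% of all) and all above for 33 of the 89 higher genes (37.08%, against 5.29%). These arrays also share the high 18S rRNA signal of nucleofection, and its part in these shares was not tested. Against untransfected cells, the AML1-ETO nucleofection arrays did not show every fall. CD24 differed there by 0.78, TCIRG1 by 0.15, and ELANE and TKT by -0.01 each. FBN2 (-2.10) and MT1F (-1.30) were lower there too. The siRNA differs as well, and its part was not tested.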

How the data were processed

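Total RNA of Kasumi-1 cells was hybridised to single-colour arrays. The deposited values are linear intensities, 1 for each probe set and array. The authors computed them in MAS5 (per the submitters' processing notes) and multiplied each array by the scale factor in the labels. The software version is not given in the sources used here. Of 22283 probe sets, 19065 had 1 gene symbol in the platform annotation, 1043 several, 2107 none and 68 were controls. Only probe sets with 1 symbol were named.

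A floor of 20 was set under the intensities before log2, so differences of dim genes are understated, and a gene below 20 on all arrays of a group gives a bound. This affected 38.4% to 44.3% of probe sets on the 5 arrays described. The brightest probe set stood for each of 11963 genes, of which the upper 60% by mean (7178 genes) were tested. Limma 3.58.1 in R 4.3.3 (lmFit, eBayes) was fitted to 6 group means over 14 arrays, with Benjamini-Hochberg adjustment over all genes tested. The number of arrays limits the precision.

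Named were all tested granule genes, the 15 largest falls and rises among called genes with non-overlapping arrays, up to 5 members with the smallest p per list, and RUNX1T1. Members, lists (31) and tests were chosen with earlier results of these data known. Alternatives changed the scaling, floor, filter, probe sets, variance model, arrays, covariates and block. The 18S rRNA covariate was added after the data were seen. Python 3.11.15, pandas 2.3.3, numpy 2.4.6 and matplotlib 3.10.9 were used.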

Additional observations from a re-analysis of the deposited data

Results flagged for a closer look

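Among the 15 largest falls and 15 largest rises, 25 genes also differed between luciferase nucleofection and luciferase lipid, where the log2 difference of nucleofection minus lipid passed limma's adjusted threshold. The differences of the lower genes were FBN2 -2.24, AZU1 -2.18, MRPL35 -2.45, CD24 -2.20, CFD -1.97, PIK3CG -2.29, MSRB1 -1.68, ZNF580 -1.65, SERPINH1 -1.64, IFT122 -2.02, TMEM135 -1.68, SPINT2 -2.04, PDLIM1 -1.64, CSF3R -1.91 and CTSG -1.51. The differences of the higher genes were UGCG 1.23, RCC1 1.31, NOTCH2NLA 1.22, SLCO2A1 1.24, GDPD3 1.31, TGFB3 1.11, CYP2D6 1.68, FGR 1.66, RC3H1 1.91 and BATF3 1.93. These were the same nucleofection arrays as in the comparison with untransfected cells, so these genes had been chosen for extreme values on them. Dose and method cannot be told apart, and the array of nucleofection without siRNA also stood low for genes such as AZU1 (332.6) and CFD (66.1).

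The control probe set of 18S rRNA entered the gene comparisons only as a covariate of an alternative fit. Its signal was at least 243.6 on the luciferase nucleofection arrays, above the 67.9 and 46.3 of the untransfected arrays.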

How the results depend on the processing

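For the comparison with untransfected cells, 369 genes were called. The count was 554 without the filter, 904 of 17203 over all probe sets, 618 with the array without siRNA joined to the luciferase arrays, 133 with the replicate block and 100 with the scale factor as a covariate. It was 10 with the GAPDH ratio, 10 with the 18S rRNA signal (added after seeing the data), 0 when only the 2 groups were fitted by limma (1521 at an unadjusted p below 0.05), and 56 to 156 leaving out 1 array. More features were tested without the filter and over all probe sets, and fewer samples were fitted with only the 2 groups or 1 array left out. For the other settings the cause was not tested. Against lipid, 586 genes were called. The count was 1416 over all probe sets, 360 with only the 2 groups, 330 with the replicate block, 229 with the scale factor, 0 with the GAPDH ratio (641 at an unadjusted p below 0.05), 3 with the 18S rRNA signal and 182 to 328 leaving out 1 array. The remaining alternatives (scaling, floor, the upper 40% of genes, mean of probe sets, trend, robust fit and array weights) kept both counts within 1.5 times, as did no filter against lipid. Of the 81 named genes called, 62 kept the call after quantile normalization, 44 with the replicate block, 6 with the GAPDH ratio, 7 with the 18S rRNA signal and 24 to 40 without 1 array, and 0 reversed in any setting. No pairing of arrays by replicate number was seen. Deviations of same-numbered arrays correlated at -0.29 to 0.05 and those of different-numbered arrays at -0.26 to 0.29, both with a median of 0. In groups of 2 arrays these deviations mirror each other, so the check cannot settle whether arrays were paired. Luciferase nucleofection and untransfected cells shared only number 1. A lone remaining array is assumed to vary like the other groups. Dim genes, near the floor of 20, are limited by signal over background.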
